A study of Mus musculus with 9 samples.

Results

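Host transcripts of microRNAs are long RNAs from whose body 1 or more microRNAs are cut. They are taken here as genes whose symbol starts with Mir and ends with hg and for which the array carried a probe (an oligonucleotide that captures 1 transcript) identified by a RefSeq accession or a RIKEN cDNA clone. Of 14 such genes in the RefSeq annotation, 7 had a probe, 9 probes in all, among 5439 genes named in this way and 97836 probes on the array. The 7 are Mir22hg, Mir9-3hg, Mirc35hg, Mir100hg, Mir217hg, Mir1a-1hg and Mir133a-1hg. Mir17hg, Mir155hg, Mir99ahg, Mir205hg, Mir670hg, Mir124-2hg and Mir124a-1hg had no probe with such an identifier and are not analysed here.

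RNA came from livers of male mice of the inbred strain C57BL/6J, killed at 20 weeks of age. Each of 9 single-colour arrays held RNA of 1 pool of 4 livers, and there were 3 pools in each of 3 groups. Controls ate chow for 17 weeks and have no gavage in the labels. In the high fat diet group, fat supplied 45% of dietary energy for 17 weeks, and saline was gavaged over the last 5. In the metformin group the same diet was combined with metformin, an antidiabetic drug, at 3 mg/kg/day by gavage for the last 5 weeks. Both diet groups therefore shared the diet and the gavage. They differed from the controls in the diet and, as far as the labels tell, in the gavage. Pooling averages over 4 mice, so the spread between pools is smaller than that between mice, and the p-values measure only the spread between these pools. None of the 8 hepatocyte markers chosen to check the tissue had a named probe, so the label liver could not be checked in this way.

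A host transcript is made by RNA polymerase II as a primary transcript, and the nuclear enzyme Drosha with Dgcr8 cuts out a hairpin that Dicer trims to the mature microRNA. Loaded on an Argonaute protein, the mature strand pairs with target mRNAs mainly through its seed, and the target is repressed. The array read the long host RNA and not the mature microRNA, and the level of one need not follow the level of the other. In liver, microRNA-22 is an abundant product of this kind, whereas microRNA-1 and microRNA-133 are best known from striated muscle, microRNA-9 from the developing brain and microRNA-216 and microRNA-217 from the exocrine pancreas.

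The RefSeq tables (GRCm38.p6) place 10 microRNA genes inside 6 of the 7 hosts on the same strand, with 18 mature sequences. The arms below are shown because they are cut from the measured hosts. The list is not complete. Of the 18, the -3p arms of miR-182, miR-183, miR-96, miR-100, miR-125b-1 and miR-216b are left out. Also not shown, and not among the 18, are miR-1a-3p of Mir1a-1hg and let-7a-5p of Mir100hg, the best known arms of their hairpins. The sequences run 5′ to 3′, and capitals mark the seed, bases 2 to 8.
miR-22-3p, from Mir22hg: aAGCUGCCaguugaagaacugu
miR-22-5p, from Mir22hg: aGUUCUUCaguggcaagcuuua
miR-9-5p, from Mir9-3hg: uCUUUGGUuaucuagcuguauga
miR-9-3p, from Mir9-3hg: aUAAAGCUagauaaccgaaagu
miR-182-5p, from Mirc35hg: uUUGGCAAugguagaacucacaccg
miR-96-5p, from Mirc35hg: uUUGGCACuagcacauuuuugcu
miR-183-5p, from Mirc35hg: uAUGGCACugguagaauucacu
miR-100-5p, from Mir100hg: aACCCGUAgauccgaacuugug
miR-125b-5p, from Mir100hg: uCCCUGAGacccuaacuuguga
let-7a-2-3p, from Mir100hg: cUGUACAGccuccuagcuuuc
miR-216b-5p, from Mir217hg: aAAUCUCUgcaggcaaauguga
miR-1a-1-5p, from Mir1a-1hg: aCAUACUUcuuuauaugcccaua

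No pair among the 18 mature sequences, shown or not, had the same seed, and miR-1a-3p and let-7a-5p of these hosts were not among those compared. Of the arms shown, 3 share a seed with microRNAs made elsewhere: that of miR-100-5p with miR-99a-5p and miR-99b-5p, that of miR-96-5p with miR-1271-5p, and that of miR-125b-5p with 4 others, miR-125a-5p among them. Mir216a and Mir217, the remaining members of the pancreatic cluster, lie on the same strand within 20 kb beyond the annotated end of Mir217hg and not inside it. The hairpins of the hosts that carry 1 microRNA and were above background in every pool are shown whole, with both mature arms in capitals, at chr11:75463716-75463810 (plus strand) for Mir22 and chr7:79505264-79505353 (plus strand) for Mir9-3, in GRCm38.p6.
Mir22: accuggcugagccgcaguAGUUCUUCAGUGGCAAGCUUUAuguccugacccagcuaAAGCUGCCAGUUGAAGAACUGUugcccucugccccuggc
Mir9-3: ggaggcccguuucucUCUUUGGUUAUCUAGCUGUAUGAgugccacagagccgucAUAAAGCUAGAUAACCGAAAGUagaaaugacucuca

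All levels are log2 signal relative to the 75th percentile of the same array, so a probe at 0 has the signal of that percentile, and levels of different probes cannot be set against each other. Arrays give no counts, and their number limits the precision. A pool counted as above background when at least a 0.5 share of the probe's spots were well above background in the scanner software. On this rule 5 of the 9 host probes were above background in all 9 pools, 1 in some pools and 3 in none. Arrays of the metformin group were dimmer, with a 75th percentile of 177 to 215 intensity units against 217 to 258 in the high fat diet group and 236 to 242 in the controls. All controls shared slide 1 with 1 high fat diet pool (replicate 1). Slide 2 carried both remaining pools of that diet beside 2 metformin pools (replicates 1 and 2), and metformin replicate 3 was alone on slide 3.

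Mir22hg, the host of miR-22, was read by a bright probe that was above background in every pool. Its level was 3.64, 3.77 and 4.09 in the controls, 3.92, 3.74 and 4.29 in the high fat diet pools and 4.05, 3.99 and 4.32 in the metformin pools, in order of replicate. In linear terms the signal was 12.5 to 19.9 times the 75th percentile of its array. The 3 groups overlapped, with the lowest value in a control and the highest in a metformin pool. The means were 3.83 ± 0.23, 3.98 ± 0.28 and 4.12 ± 0.17 (SD, n = 3 each). The metformin pools were 0.29 above the controls (95% interval -0.14 to 0.71, limma adjusted p = 0.444). This interval leaves room for a rise of up to 0.71 and a fall of no more than 0.14. Between high fat diet and control the difference was 0.15 (SE 0.19, adjusted p = 0.839), and between metformin and high fat diet 0.13 (SE 0.19, adjusted p = 0.939). On slide 2 alone, with 2 pools against 2, the last difference was 0.0002. The 2 spots of the probe differed by at most 0.16 within an array, less than the SD between pools of any group.

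Mir9-3hg, which carries a gene of the neural microRNA miR-9, was also above background in all 9 pools. It lay at 1.90, 1.64 and 1.40 in the controls, at 1.70, 2.00 and 1.63 in the high fat diet pools and at 1.67, 1.47 and 1.37 in the metformin pools. Group means were 1.65 ± 0.25, 1.78 ± 0.20 and 1.50 ± 0.16 (SD, n = 3 each), and the groups overlapped. The metformin pools were lower than the high fat diet pools by 0.27 (95% interval -0.67 to 0.12, limma adjusted p = 0.835), a difference within the spread of the pools. High fat diet and control differed by 0.13 (SE 0.18, adjusted p = 0.856). The probe has 1 spot per array and stands for 1 of the RefSeq transcripts of the gene. None of the 4 neuronal markers had a named probe, so the part of nerve RNA in this signal was not tested.

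Mirc35hg, the host of the cluster of Mir183, Mir96 and Mir182 known from sensory organs, gave opposite readings from its 2 probes. The probe for transcript NR_126541 was bright, at 1.70, 1.48 and 1.47 in the controls, 1.57, 1.72 and 1.54 in the high fat diet pools and 1.72, 1.65 and 1.72 in the metformin pools. The probe for transcript NR_126540 was above background in 0 of 9 pools, between -5.78 and -4.97, and below the lowest level above background on each array. The array therefore gives no single level for this gene. The bright probe was the steadiest of the hosts, with a range of 0.25 over the 9 pools, narrower than that of all but 0.812% of the tested probes. Its group means were 1.55 ± 0.13, 1.61 ± 0.09 and 1.70 ± 0.04 (SD, n = 3 each). Between metformin and control the difference was 0.15 (95% interval -0.15 to 0.44, limma adjusted p = 0.578). That interval makes this the most closely bounded host, since changes above 0.44 or below -0.15 fall outside it.

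Mir100hg, a long host of miR-100, miR-125b-1 and let-7a-2, was read by the probes of 2 RIKEN clones that disagreed likewise. The first clone was above background in all 9 pools, at -1.48, -0.96 and -1.31 in the controls, -1.43, -1.77 and -1.06 in the high fat diet pools and -0.997, -1.70 and -1.84 in the metformin pools. The second clone was above background in 0 pools, between -5.77 and -4.26. The groups overlapped widely for the first clone, with means of -1.25 ± 0.26, -1.42 ± 0.35 and -1.51 ± 0.45 (SD, n = 3 each). Metformin replicates 2 and 3 and high fat diet replicate 2 were the lowest, while the remaining pools of the diet groups lay among the controls. Metformin and control differed by -0.26 (95% interval -0.84 to 0.32, limma adjusted p = 0.625). Metformin and high fat diet differed by -0.09 (SE 0.26, adjusted p = 0.974), and the sign turned to 0.07 on slide 2 alone. A clone probe may read another transcript of the locus than the one from which the microRNAs are cut.

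Mir133a-1hg, a host named for a microRNA of striated muscle, was dim and, on the rule above, above background in every pool. In 5 of the 9 pools, all 3 controls among them, only 1 of its 2 spots was well above background. With a share of spots above 0.5 required, a rule chosen after the values were seen, it was above background in 4 of 9 pools and in 0 of 3 controls. Its level was -2.36, -2.22 and -3.06 in the controls, -2.62, -2.33 and -1.72 in the high fat diet pools and -2.09, -2.94 and -2.71 in the metformin pools. Means were -2.55 ± 0.45, -2.23 ± 0.46 and -2.58 ± 0.44 (SD, n = 3 each), and all groups overlapped. The precision was low, because the 2 spots of the probe differed by a median of 0.87 and up to 2.23 within an array. High fat diet and control differed by 0.32 (95% interval -0.37 to 1.02, limma adjusted p = 0.769), a value that turned to -0.08 on slide 1 alone. Metformin and high fat diet differed by -0.36 (SE 0.31, adjusted p = 0.881).

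**Figure D1:**
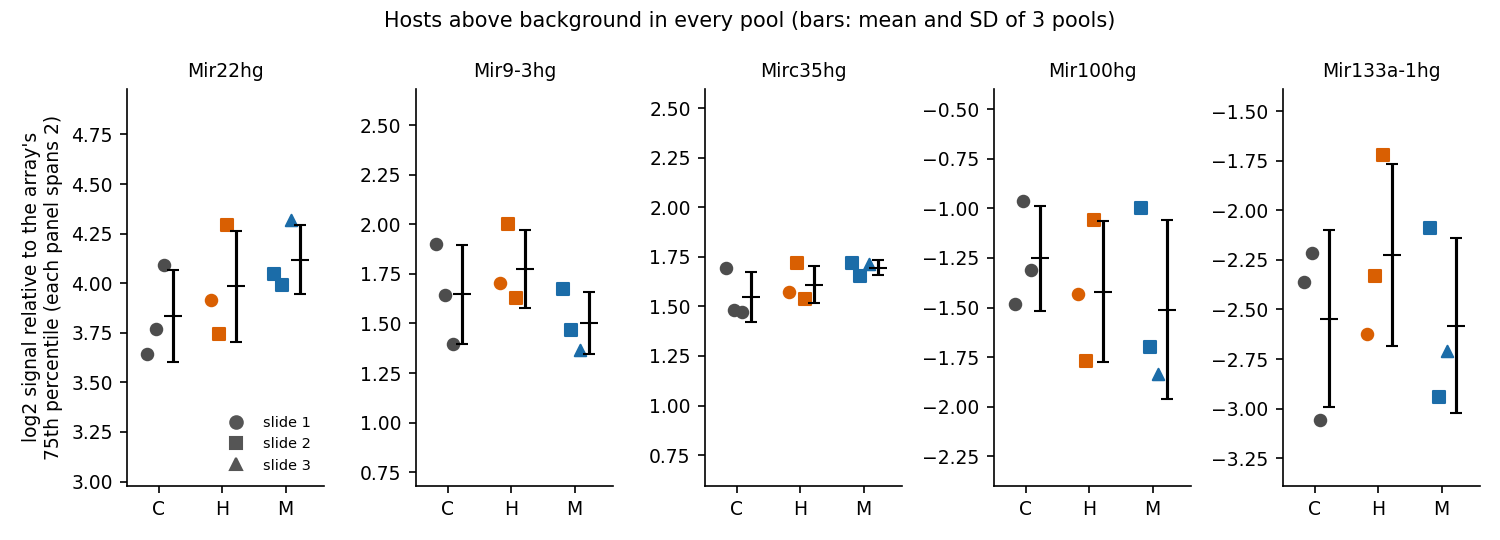
Level (log2 signal minus that of the 75th percentile) of the 5 hosts above background in every pool, with each pool as a point shaped by slide and the mean and SD of 3 pools as bars, for control (C), high fat diet (H) and metformin on the diet (M). Each panel spans the same height on its own scale, so that the narrow range of 0.25 for the bright probe of Mirc35hg can be seen beside the range of 1.34 for Mir133a-1hg.

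Mir217hg, a host of the pancreatic microRNA miR-216b, was not above background in any pool. Its background-subtracted signal was 4.88 to 11.8 intensity units, against a local background, already subtracted, with a median of 20.0 to 24.5 units, and the level ran from -5.46 to -4.36. The 3 probes that were above background in no pool lay below the lowest level above background on all 9 arrays. Those of the second Mir100hg clone and the first Mirc35hg transcript lay within 0.05 of each other on 8 of 9 arrays, although they are different genes, and differed by 0.83 on control replicate 1. Values that different genes share on an array do not measure either gene. No change was read from them, and none of the 3 was tested.

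**Figure D2:**
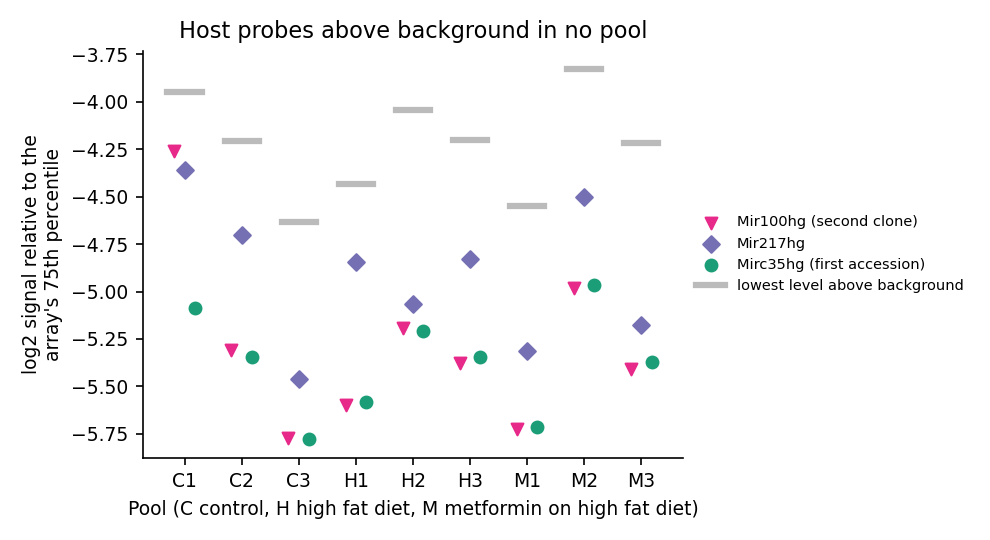
Level (log2 signal minus that of the 75th percentile) in each of 9 pools for the 3 host probes above background in none, with the lowest level above background on that array as a grey bar. Every point lies under its bar, and the points of Mir100hg and Mirc35hg lie within 0.05 of each other in 8 of the 9 pools.

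Mir1a-1hg, the host of miR-1a-1 and known from heart and skeletal muscle, was the host with the widest range over the pools (2.03). It lay at -3.84, -3.38 and -3.12 in the controls, at -3.03, -3.12 and -2.46 in the high fat diet pools and at -3.87, -3.80 and -4.50 in the metformin pools. Every metformin pool was below every high fat diet pool, with a gap of 0.68 between the nearest. The high fat diet pools were also all above the controls, but the nearest pair was apart by 0.001. Metformin pools and controls overlapped. In intensity units after background subtraction the signal was 26.3 to 46.8 with high fat diet, 16.9 to 27.8 in the controls and 7.83 to 14.7 with metformin, against a local background of 20.0 to 24.5 units.

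Detection of Mir1a-1hg followed the same order. It was above background in 3 of 3 high fat diet pools, 1 of 3 controls and 0 of 3 metformin pools, and it entered the tests only through the high fat diet pools, so a difference between tested groups was built into its selection. Spot by spot, 4 of 6 spots were well above background with high fat diet, 2 of 6 in the controls and 0 of 6 with metformin. High fat diet replicates 1 and 2 each had 1 spot above and 1 spot not above background, and in replicate 2 the spots were at -3.69 and -2.54, the largest gap on any array (1.15). With a share of spots above 0.5 required, a rule chosen after these values were seen, the probe was above background in 2 of 9 pools and would not have been tested.

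Between metformin and high fat diet the fitted difference of Mir1a-1hg was -1.18 (SE 0.26, 95% interval -1.77 to -0.59), at an unadjusted p of 0.00123 and a limma adjusted p of 0.483, so it did not pass. With all metformin pools below background, the size is uncertain. It was 2.13-fold lower when the high fat diet mean of -2.87 was set against the higher of 2 values for each metformin pool. These were the pool's own level and the lowest level above background on its array, taken as a floor. Only metformin replicate 3 lay under its floor, so 2.13-fold is not a lower bound. This floor is lenient, since single dim probes pass it. The first spot alone gave -1.10, with groups that overlapped (-3.69 in a high fat diet pool against -3.44 in a metformin pool), and the second spot alone gave -1.26, with groups apart. On slide 2 alone the fitted difference was -1.04 (SE 0.26, adjusted p = 0.838), with both metformin pools there below background, so that its size is uncertain too, and the part of the slide in the difference was not tested. With normexp background correction the difference was -0.18 (SE 0.10, limma adjusted p = 0.728). That setting adds an offset of 50 units to every signal, where this probe had 7.83 to 46.8 units. Such an offset narrows log2 differences of dim probes, so -0.18 does not show what background correction alone does. The dimmer metformin arrays, named above, moved with this difference, and their part in it was not tested. A permutation test of these 3 pools against 3 could not reach a two-sided exact p under 0.1.

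Between high fat diet and control, Mir1a-1hg differed by 0.58 (95% interval -0.01 to 1.17, limma adjusted p = 0.425). It was 0.12 with normexp, with the same offset of 50, and 0.76 with quantile normalization (limma adjusted p = 0.703 and 0.341). The value was 0.38 without either high fat diet replicate 3 or control replicate 1. Between metformin and control it differed by -0.61 (95% interval -1.19 to -0.02, adjusted p = 0.251), and by -0.05 with normexp, -0.36 with quantile normalization and -0.38 without metformin replicate 3. Control replicate 3 was the only pool of either group above background, so no fold is given. Neither difference passed. Over the 3 groups together the F test gave an adjusted p of 0.151, where 0.124% of the tested probes passed. None of the 12 markers of skeletal and cardiac muscle had a named probe, so muscle RNA in the pools was not tested as a part of this signal. In a bulk sample, fewer cells of a type and less RNA per cell cannot be told apart.

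**Figure D3:**
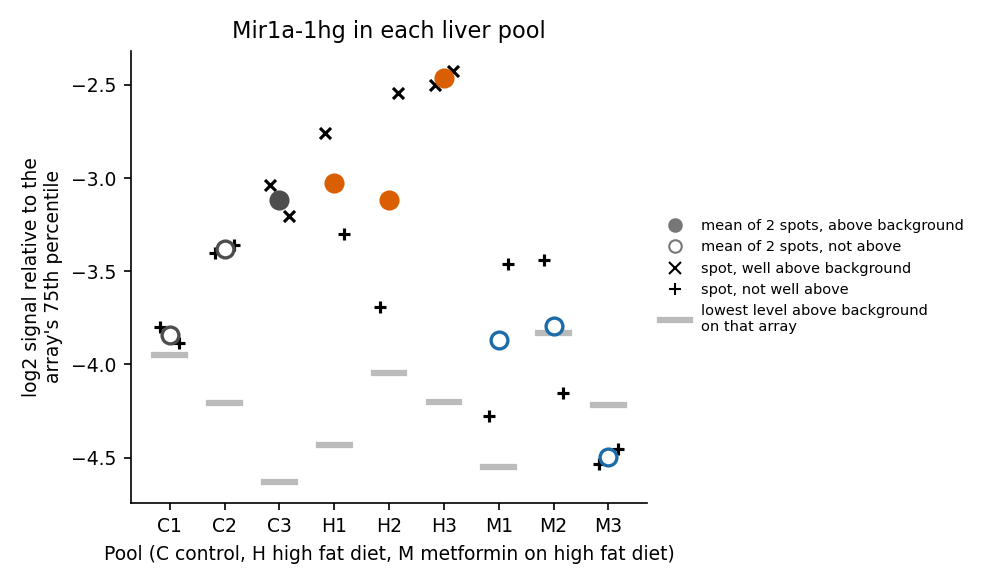
Level of Mir1a-1hg (log2 signal minus that of the 75th percentile) in each pool, with circles for the mean of 2 spots (filled where above background), small crosses for the single spots and a grey bar for the lowest level above background on that array. All 3 high fat diet circles are filled and lie above the 3 open metformin circles, and the spots of high fat diet replicate 2 are apart by 1.15.

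No host passed in any comparison. In limma, 0 of the 6 tested hosts passed an adjusted p of 0.05 between high fat diet and control, where 0.0451% of all tested probes did. Metformin against high fat diet gave 0 hosts and 0.00645% of the tested probes, and metformin against control 0 hosts and 0.546%. At an unadjusted p under 0.05 there were 0, 1 and 1 hosts, against 12.1%, 6.64% and 19.1% of all probes, and the single host was Mir1a-1hg both times. Groups did not overlap for 1, 1 and 0 hosts, against 15.4%, 16.2% and 24.9% of all probes, and again the host was Mir1a-1hg. Mir1a-1hg passed the filter through the high fat diet pools alone, so these counts are a description.

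The 5 hosts above background in every pool depend on the detection rule through Mir133a-1hg, and 4 remained under the stricter rule. Of the 5, 4 were higher and 1 lower with high fat diet than in the controls, with a median of 0.13 against -0.01 over all probes. With metformin, 2 were higher and 3 lower than with high fat diet, with a median of -0.09 against 0.01. Against the controls the metformin pools had 2 hosts higher and 3 lower, with a median of -0.04 against -0.01. Without Mir133a-1hg, 3 were higher and 1 lower with high fat diet than in the controls, and 2 were higher and 2 lower in both other comparisons. Their adjusted p-values ran from 0.444 to 0.974 in limma, and 0 of the 5 had groups apart in any comparison. The comparisons share pools, so their signs are not independent of each other.

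**Figure D4:**
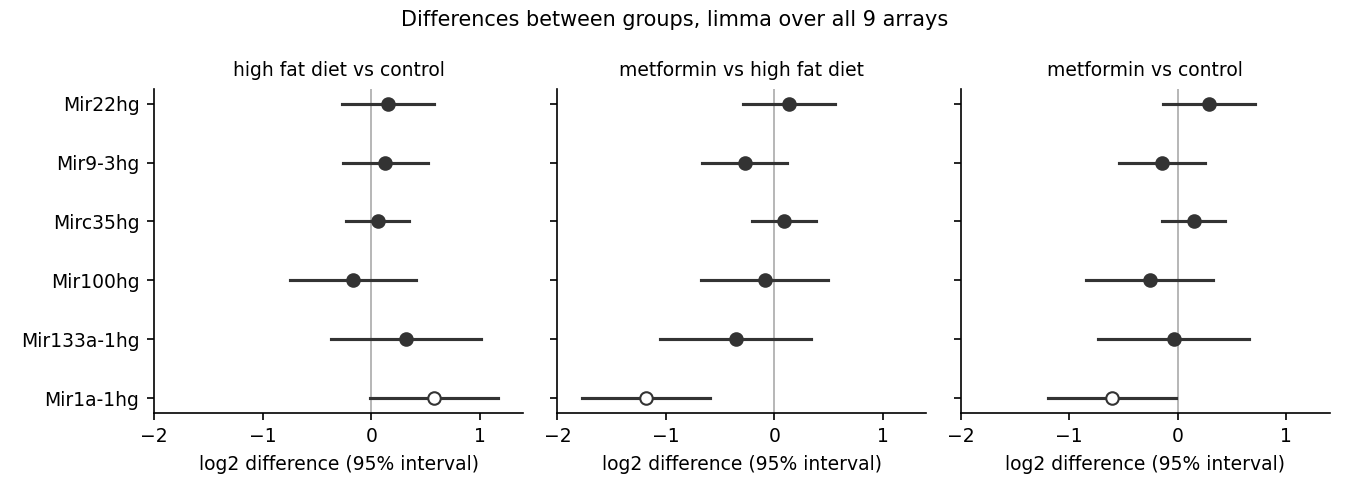
Differences in log2 signal between groups from limma over all 9 arrays, with 95% intervals as lines, for the 6 tested hosts in 3 comparisons; the open circle marks Mir1a-1hg, which was above background in 4 of 9 pools. Every interval crosses 0 except those of Mir1a-1hg between metformin and high fat diet (-1.77 to -0.59) and between metformin and control (-1.19 to -0.02), neither of which passed after adjustment. Mir1a-1hg entered the tests only through the high fat diet pools, so a difference was built into its selection. Its metformin pools were all below background.

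For the 4 hosts with the widest range among those above background in every pool, the most similar named genes were sought by Pearson correlation of log2 level over the 9 pools among 1966 candidates. Mir133a-1hg was followed most closely by Synpo2, which encodes an actin-binding protein (r = 0.83), and Gm31980 (r = 0.82). Mir100hg was nearest to Gm15401 (r = 0.95) and Gm35071 (r = 0.90). For Mir22hg these were Sdhaf3, an assembly factor of mitochondrial complex II (r = 0.93), and Ankrd17 (r = 0.92), and for Mir9-3hg Gm30536 (r = 0.93) and Gm36167 (r = 0.92). Synpo2, Sdhaf3 and Ankrd17 were read by probes of RIKEN clones, so their main mRNAs may not be read. The correlations are the highest of many values over 9 pools that share arrays and groups, and they are given as a description.

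Enzymes and cofactors that process microRNAs or carry out silencing were nearly absent from the named probes. Of a list of 44 such genes, 3 had a named probe, Cnot1 and Tut4 through RIKEN clones and Hnrnpa1 through a noncoding RefSeq transcript, so the main mRNA may not be read, and 0 passed in any comparison. Cnot1, the scaffold of the deadenylase complex that shortens silenced mRNAs, was at -2.86 ± 0.28, -2.97 ± 0.14 and -2.09 ± 0.22 in control, high fat diet and metformin pools (SD, n = 3 each). Metformin pools were above all pools of both other groups, by 0.87 against high fat diet (SE 0.18, adjusted p = 0.483) and by 0.76 against control (SE 0.18, adjusted p = 0.0828), and 1 of 3 controls was above background. Groups were apart for 16.2% and 24.9% of all tested probes in these comparisons. Tut4, a terminal uridylyl transferase that tags microRNA precursors, differed by 0.64 between metformin and control (SE 0.19, adjusted p = 0.126) and by 0.50 between metformin and high fat diet (SE 0.19, adjusted p = 0.697). Hnrnpa1, an RNA-binding protein that assists the processing of some primary transcripts, was at -0.34 between high fat diet and control (SE 0.18, adjusted p = 0.507).

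A list of 28 other noncoding RNAs, written as hosts under other kinds of symbol, had 13 tested members, of which 6 hold a hairpin on the same strand in the RefSeq tables. Limma called 0 of 13 in each comparison (lowest adjusted p 0.109, 0.514 and 0.058), with medians of -0.21, -0.05 and -0.43 against -0.01, 0.01 and -0.01 over all probes. A list of named noncoding genes that do hold such a hairpin, added after the data were seen, had 11 tested members, 0 called and medians of -0.14, 0.02 and -0.20, so the sign of the second median turned. Mirt2, which despite its symbol holds no hairpin there, was at -1.77 ± 0.50, -2.06 ± 0.34 and -3.30 ± 0.47 in control, high fat diet and metformin pools (SD, n = 3 each), with the metformin pools below all others. Its difference was -1.23 against high fat diet (SE 0.31, adjusted p = 0.514) and -1.53 against control (SE 0.31, adjusted p = 0.058). Only 1 of 3 metformin pools was above background, against 3 of 3 in each other group, so both sizes are uncertain. Groups were apart for 16.2% and 24.9% of all tested probes in these comparisons. Rian and Meg3, neighbouring imprinted noncoding RNAs, had the smallest p between high fat diet and control. Rian was at -1.26 ± 0.75, -3.51 ± 0.05 and -3.26 ± 0.73 in control, high fat diet and metformin pools (SD, n = 3 each), above background in 3, 0 and 1 of 3 pools. It entered the tests only through the controls, so a difference from them was built into its selection. Between high fat diet and control its fitted difference was -2.25 (SE 0.41, 95% interval -3.16 to -1.35, adjusted p = 0.109), with no overlap. Groups were apart for 15.4% of all tested probes there. All high fat diet pools were below background, so the size is uncertain. Between metformin and control the difference of Rian was -2.01 (SE 0.41, adjusted p = 0.059). Meg3 was at -0.44 ± 0.54, -1.94 ± 0.11 and -1.52 ± 0.46 (SD, n = 3 each), a difference of -1.50 with high fat diet (SE 0.29, adjusted p = 0.122), again with no overlap. 6530402F18Rik came second between metformin and high fat diet (0.45, SE 0.24, adjusted p = 0.8).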

How the data were processed

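Host genes were found by symbol in the RefSeq gene table (GRCm38.p6), and probes were matched through RefSeq accessions (4656 probes) or RIKEN clone identifiers (1259 probes). The members and lists were chosen with earlier results of these data known. Per the file headers, the authors extracted spot intensity with Agilent Feature Extraction 11.5.1.1 (10.7 per the submitters' processing notes), background-subtracted and spatially detrended; the header's build is mm9. The deposited table holds log2 values and equalled the scanner values, scaled as here, within 0.01.

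From the processed intensity, spots with outlier marks were dropped, log2 signals were scaled to the 75th percentile of their array and averaged over the spots of a probe. Probes above background on at least 3 of 9 arrays were tested (62036 probes). Tests used lmFit and eBayes of limma 3.58.1 (R 4.3.3) on all 9 arrays, with Benjamini-Hochberg adjustment over all tested probes, threshold 0.05; the scripts were tested on simulated data. No spot was saturated, and no arrays were identical. All members are named, and similar genes and list members were named by rank. Alternatives were normexp with an offset of 50 on median signals (no mean signal column), quantile and median scaling, and the deposited table. Further alternatives were filters, an intensity trend, slide or replicate number as a block, and leaving out each array.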

Additional observations from a re-analysis of the deposited data

How the results depend on the processing

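Of 333 alternative values of the 18 host differences, 16 changed sign. Of the 327 that had a test, 0 passed an adjusted p of 0.05, and the other 6, on slide 1 alone, had none. Filters, the intensity trend, the replicate block and the loss of a pool of the third group could not alter a fitted difference. The signs there were fixed in advance. The deposited table equalled the values used here within 0.01, so its signs were all but fixed too. Mir1a-1hg kept its direction in 18 of 18, 18 of 18 and 17 of 17 alternatives of its 3 comparisons, counts that include the settings just named. The metformin pools lay -1.31 to -0.18 from the high fat diet pools (limma adjusted p 0.205 to 0.9996). From the controls, the high fat diet pools lay 0.12 to 0.76 and the metformin pools -0.80 to -0.05. The ends at -0.18, 0.12 and -0.05 came from normexp with its offset of 50. Mir133a-1hg turned to -0.079 between high fat diet and control with slide as a block and on slide 1 alone, and to 0.022 with normexp, 0.092 with quantile and 0.052 with median scaling between metformin and control. Mir100hg turned to 0.067 between metformin and high fat diet with slide as a block and on slide 2 alone. Leaving out 1 array gave -0.35 to 0.090 for this last difference, -0.35 to 0.0042 for Mir100hg and -0.0027 to 0.28 for Mir22hg between high fat diet and control, and -0.29 to 0.15 for Mir133a-1hg between metformin and control. The cause was not tested.

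Counts of all probes called moved more. For high fat diet against control the count was 28, and 64 with normexp, 12 without a filter, 2 with slide as a block, 47 with an intensity trend and 0 (without high fat diet replicate 2 or 3; limma, unadjusted 5721 and 6240) to 296 (without high fat diet replicate 1) with 1 array left out. For metformin against high fat diet it was 4, and 7 with normexp, 2 with median scaling, 2 without a filter, 9 with a trend, 0 with slide as a block, 0 on slide 2 alone (unadjusted 3630), and 0 (unadjusted 2839 to 4004) to 4 with 1 array left out. For metformin against control it was 339, and 594 with normexp, 638 with probes above background on all arrays, 96 without a filter, 0 with slide as a block, 1214 with a trend, and 2 (without metformin replicate 3) to 2711 (without control replicate 1) with 1 array left out. For the 3 groups together it was 77, and 205 with normexp, 35 without a filter, 0 with slide as a block, 435 with a trend, and 0 (without metformin replicate 3; unadjusted 7122) to 347 (without high fat diet replicate 1) with 1 array left out. With slide as a block, 2985, 2621, 2644 and 2835 probes had an unadjusted p under 0.05 in limma. With the replicate number as a block the counts were 0 (unadjusted 7932), 0 (unadjusted 4223), 79 and 8. Same-numbered pools correlated at -0.094 to 0.13 in their deviations from group means. The labels do not state that the numbers pair the pools, and these correlations cannot settle it.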

Other observations

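Genes whose RefSeq synonym, but not symbol, has the form of a microRNA host were looked at after the values were seen. Carmn, also called Mir143hg, was at 0.50 ± 0.17 in the controls, 0.94 ± 0.07 with high fat diet and 1.02 ± 0.07 with metformin (SD, n = 3 each). All pools of both diet groups were above all controls, by 0.44 (SE 0.14, limma adjusted p = 0.252) and 0.52 (SE 0.14, adjusted p = 0.098), and neither passed. Among all tested probes, groups were apart for 15.4% between high fat diet and control and 24.9% between metformin and control. Morrbid, also called Mir4435-2hg and known from the survival of short-lived myeloid cells, was at -0.997 ± 0.21, -0.38 ± 0.22 and -0.68 ± 0.12 (SD, n = 3 each) on 1 of its 2 probes, with all high fat diet pools above all controls (0.62, SE 0.17, adjusted p = 0.204); its other probe was above background in no pool. Lncppara, also called Mirlet7bhg, was above background in 2 of 9 pools and was not tested. None of the 10 leukocyte and macrophage markers, the 10 smooth muscle and stellate cell markers, the 6 endothelial or the 4 cholangiocyte markers had a named probe, so the part of such cells in these values was not tested.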
